A study of Mus musculus with 20 samples.

Results

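The 10 genes that mark the stroma of the bone marrow and were followed here in RNA from 20 transplanted mice are *Cxcl12*, *Lepr*, *Igfbp5*, *Col1a1*, *Col1a2*, *Col3a1*, *Sparc*, *Bglap*, *Adipoq* and *Cdh5*. They are 10 of the 37620 genes in the count table and were chosen by symbol, for cells that belong to the recipient and not to the graft. Bulk marrow was taken from 4 groups of 5 mice, which were U2AF1(WT) and U2AF1(S34F) recipients given either vehicle or sudemycin D6. Recipients were irradiated wild-type mice of a C57BL/6 × 129S4Sv/Jae F1 cross, aged 6 to 12 weeks, and carried marrow pooled from 2 to 3 transgenic donors aged 8 to 12 weeks and of the recipient's sex. Donor cells of all groups carried rtTA and either transgene. After more than 6 weeks of engraftment all mice ate chow with 625 ppm doxycycline for 7 days, and on the last 5 of these days received sudemycin D6 (50 mg per kg) or its cyclodextrin vehicle through a jugular catheter. RNA was prepared 18 h after the last infusion. The transgenes were carried by the grafted cells, whereas the drug was infused into the blood of the whole animal.

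Stromal cells are a small minority of the marrow. Reticular cells that express the leptin receptor make the chemokine CXCL12 and hold haematopoietic stem cells in place, osteoblasts and fibroblasts lay down type I and type III collagen, adipocytes secrete adiponectin, and sinusoidal endothelium forms the exits to the blood. U2AF1 reads the AG at the end of an intron as part of U2AF, its S34F mutation changes which bases are preferred next to that AG, and sudemycin D6 binds SF3B1 at the branch point.

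The total count on genes ran from 41145892 to 62138138 a mouse (median 51836276). Neutrophil genes were abundant, as in haematopoietic marrow, and 6 of them summed to 54724 to 134890 CPM (counts scaled to the TMM-normalized library). Counts on *Xist* were 39145 to 78640 with U2AF1(WT) marrow and 1 to 8 with U2AF1(S34F) marrow, while 4 Y-linked genes together had 0 to 4 and 10270 to 15034. Genotype and sex therefore cannot be told apart in any comparison of the genotypes below. Counts on the mouse gene *U2af1* were 34.8 to 48.3 CPM in U2AF1(WT) and 46.4 to 58.0 CPM in U2AF1(S34F) mice, and whether the transgenes add to them is not given in the sources used here. In whole marrow, fewer stromal cells and less RNA per stromal cell cannot be told apart, and neither can host and donor reads of a gene.

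All 10 members were found in the annotation of mouse build NCBIM37 (mm9), the build of the authors' alignment. *Cxcl12* (ENSMUSG00000061353) lies at chr6:117118553-117131385 on the plus strand, *Lepr* at chr4:101390009-101487957 (plus), *Col1a1* at chr11:94797538-94814356 (plus), *Col1a2* at chr6:4454814-4491543 (plus) and *Igfbp5* at chr1:72904506-72921458 (minus). *Col3a1* lies at chr1:45368383-45406551 (plus), *Sparc* at chr11:55208002-55233582 (minus), *Adipoq* at chr16:23146609-23158101 (plus), *Cdh5* at chr8:106625525-106668402 (plus) and *Bglap* at chr3:88187423-88188386 (minus). *Gm17329*, on the opposite strand, overlaps *Col1a1*, and no other member shares its span with an annotated gene. The libraries were stranded, but the strand setting of the counting is not given in the sources used here.

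The sequences below show the points at which reads on 3 of the members have to be told from those of another isoform or another gene. *Cxcl12* and *Lepr* each end in alternative last exons, whose use is read from the junction into them. Each line gives the last 20 bases of the intron and the first 3 of the exon, on the plus strand of NCBIM37, and the capital marks the base just before the AG, the position at which the preference of U2AF1(S34F) differs. The first is the acceptor of *Cxcl12* exon 3, shared by the alpha, beta and gamma isoforms (chr6:117123490-117123512), followed by those of the beta exon (chr6:117128581-117128603) and the gamma exon (chr6:117126084-117126106). The last 2 are the acceptors of the short form of *Lepr* (chr4:101483933-101483955), which lacks most of the cytoplasmic tail, and of the long, signalling form (chr4:101487033-101487055).
Cxcl12 exon 3: ctccccttgtgttttggCagtgc
Cxcl12 beta: tcctctgttcttgtcaaCaggag
Cxcl12 gamma: ttctactaattttatctAagggg
Lepr short form: tattttattttattaaaCagaga
Lepr long form: aaatgtgtcttttctttTagcct

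Over the 205 annotated acceptors of the 10 genes that had an entry in the junction table, the base before the AG was C at 117, T at 80 and A at 8, and G at none. The osteocalcin gene *Bglap* has a near copy beside it, *Bglap2* (chr3:88181658-88182621). Its coding sequence of 288 bases differs from that of *Bglap* at 4 positions. The first 60 coding bases hold 3 of these differences, printed in capitals, and are given to show how few bases can assign a read.
Bglap: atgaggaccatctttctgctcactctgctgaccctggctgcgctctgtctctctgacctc
Bglap2: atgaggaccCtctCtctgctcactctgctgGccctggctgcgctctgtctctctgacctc

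Of the 10 genes, 9 were measured well above the counting floor in every mouse, and *Bglap* was not. Per kilobase of exon, *Cxcl12* was the most abundant, at 10.6 ± 3.89 CPM per kilobase (SD over 20 mice). *Igfbp5*, which codes for a secreted binding protein of insulin-like growth factors, followed at 5.74 ± 1.80. *Sparc*, for a collagen-binding matrix protein, stood at 3.49 ± 1.15. Below them *Adipoq* (1.90 ± 0.965), *Col1a1* (1.30 ± 0.613), *Lepr* (1.24 ± 0.476), *Col1a2* (1.15 ± 0.433) and *Cdh5* (0.955 ± 0.329) lay within each other's spread, and *Col3a1* was lower at 0.354 ± 0.114. The counts behind these levels ranged from 31 to 395 per mouse for *Adipoq* and from 1670 to 9504 for *Cxcl12*, so that *Adipoq* carries the larger counting error.

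*Bglap* had 0 to 6 counts per mouse and 0 in 12 of the 20 mice, all 5 sudemycin-treated U2AF1(WT) mice among them. A count of 0 leaves room for up to 3 counts, and no group stood clear of that floor, so that edgeR's filter on low counts left the gene out. Gene counts and junction reads of *Bglap* differed. The U2AF1(WT) mouse 6 under sudemycin had 29 junction reads on *Bglap* and 29 on *Bglap2* beside 0 counts on *Bglap*. The junction reads of *Bglap* and *Bglap2* were equal in 16 of 20 mice, 6 of them with reads, and totals over all mice were 63 and 68 junction reads. Reads of these 2 genes are therefore uncertain as to their copy, and the level of either is not known from the files.

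**Figure D1:**
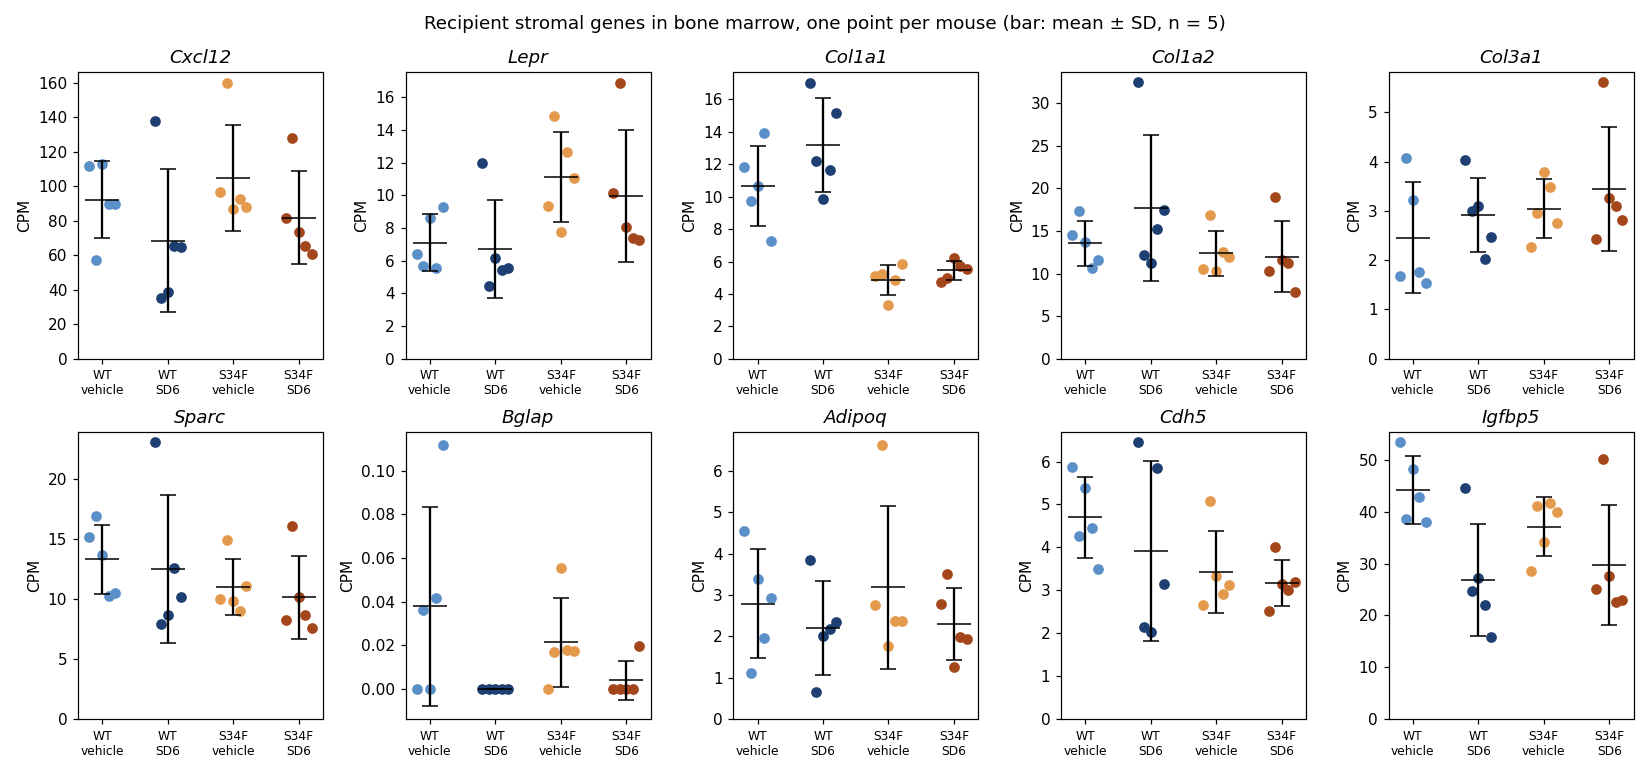
Level of each of the 10 genes (CPM, linear axis) in the 20 mice, with 1 point per mouse in 4 groups and the mean ± SD of the 5 mice as a bar. *Col1a1* lies between 3.32 and 6.24 CPM in U2AF1(S34F) mice and between 7.24 and 17 CPM in U2AF1(WT) mice, and the genotypes overlap for the other genes.

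The first question was whether infusion of sudemycin D6 altered the stromal genes. In U2AF1(WT) mice 0 of the 9 tested members passed FDR<10% with edgeR, where 3.07% of the 14763 genes tested did. *Igfbp5* was the 1 member with an unadjusted p under 0.05, and DESeq2 called it. In U2AF1(S34F) mice 0 of 9 passed with either tool and none had an unadjusted p under 0.05, beside 10.8% of 14714 genes. When the drug was tested over both genotypes in all 20 mice, *Igfbp5* fell and the other 8 did not pass, while 15.2% of 15069 genes passed, 7.92% as higher and 7.31% as lower. That is 1 gene of 9, against this background. With summed junction reads in place of gene counts, 0 members were called within U2AF1(WT) (1.13% of all genes) or within U2AF1(S34F) (7.27%), and *Igfbp5* again over both genotypes (-0.53, adjusted p = 0.0785, beside 9.81%). No member separated treated from control mice without overlap, which 4.29% of genes did in U2AF1(WT) and 8.20% in U2AF1(S34F).

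*Igfbp5* stood at 53.5, 38.5, 48.2, 42.9 and 38.0 CPM in the vehicle-treated U2AF1(WT) mice and at 44.6, 24.7, 27.2, 22 and 15.9 CPM in the sudemycin-treated ones. Of the 5 treated mice, 4 lay below every control. In U2AF1(S34F) mice the values were 28.5, 41.1, 34.2, 41.7 and 40.0 CPM under vehicle and 25.2, 50.1, 27.6, 22.7 and 23.1 CPM under sudemycin D6. Again 4 treated mice lay below all controls, and 1, mouse 6, lay above them. The log2 fold change over both genotypes was -0.52 ± 0.17 (SE, adjusted p = 0.0569), and without the U2AF1(WT) vehicle mouse 1 it was -0.47 with an adjusted p of 0.101, which is above the threshold of 0.1. Within the genotypes it was -0.74 ± 0.22 (adjusted p = 0.149) in U2AF1(WT) and -0.32 ± 0.22 (adjusted p = 0.415) in U2AF1(S34F). Each of these 2 values depended on 1 mouse. Without mouse 6 of the treated group, *Igfbp5* was lower by a log2 fold change of -1.0 (adjusted p = 0.00786) in U2AF1(WT) and of -0.60 (adjusted p = 0.0184) in U2AF1(S34F).

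*Cxcl12* was lower on average under the drug in both genotypes but did not pass. Vehicle-treated U2AF1(WT) mice had 112, 57.4, 113, 89.9 and 89.6 CPM, and treated ones 138, 35.0, 38.5, 65.4 and 65.1 CPM. Treated mice thus made up both ends of the range. The U2AF1(S34F) mice had 96.8, 160, 87.0, 92.8 and 88.2 CPM under vehicle and 81.8, 128, 73.7, 65.5 and 60.6 CPM under sudemycin D6, with 4 of 5 treated mice below all controls. The log2 fold change over both genotypes was -0.39 ± 0.22 (adjusted p = 0.285). It was -0.59 with an adjusted p of 0.0475 when the U2AF1(WT) mouse 6 under sudemycin was left out, so that this mouse decides the call.

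No other member passed the test for the drug. Over both genotypes *Col1a1* had a log2 fold change of 0.23 ± 0.12 (adjusted p = 0.232), *Col3a1* of 0.21 ± 0.19, *Col1a2* of 0.17 ± 0.19, and *Adipoq* of -0.40 ± 0.29. It was -0.10 ± 0.18 for *Sparc*, -0.12 ± 0.19 for *Lepr* and -0.18 ± 0.19 for *Cdh5*, which codes for the endothelial adhesion protein VE-cadherin. The median over the 9 members was -0.12, beside 0.01 over all genes tested. The interaction of drug and genotype passed for 0 of 9 members with edgeR and with DESeq2, none had an unadjusted p under 0.05, and 0.0130% of 15392 genes passed (0.0154% with junction reads, 0 members). The largest estimates were those of *Col1a2*, at a log2 difference of -0.43 ± 0.37, and of *Igfbp5*, at 0.40 ± 0.33 (both adjusted p = 0.859).

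**Figure D2:**
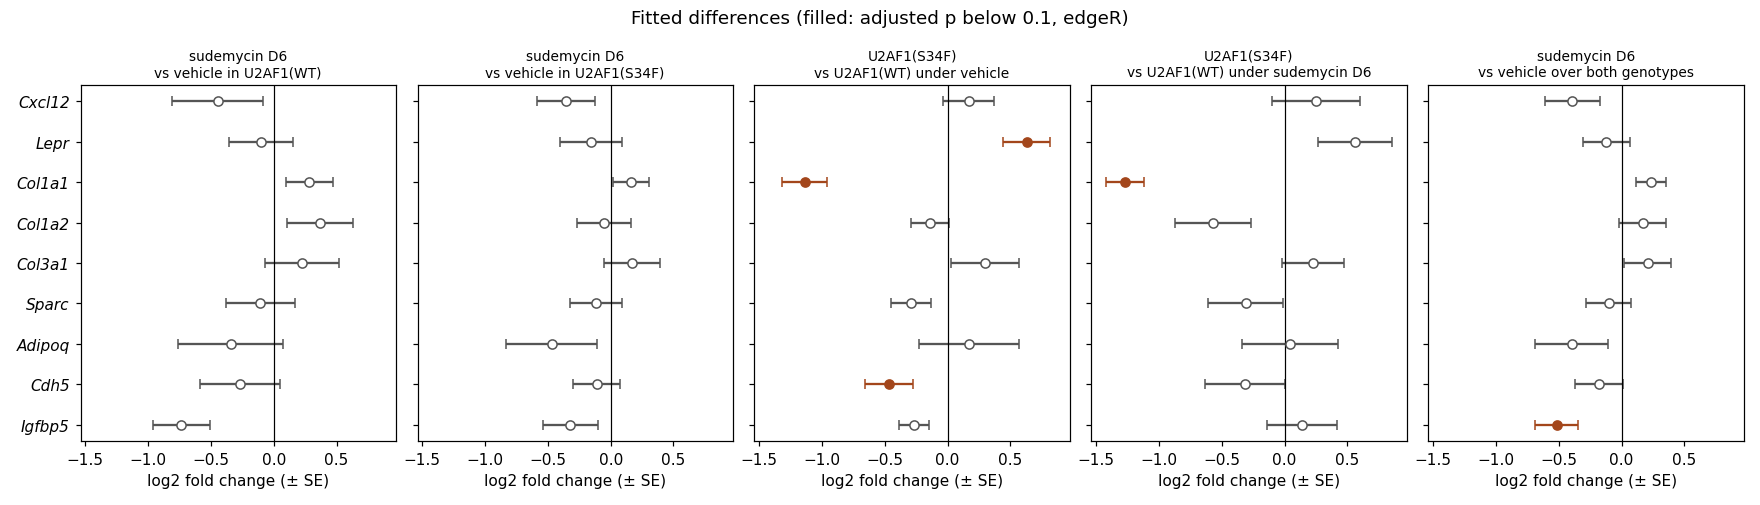
Log2 fold change (± SE, edgeR) of the 9 tested genes in 5 comparisons, where positive means higher in the group named first and filled points have an adjusted p below 0.1. *Col1a1* stands at -1.14 and -1.27 in the 2 comparisons of the genotypes, and *Igfbp5* is the 1 filled point of the drug, at -0.52.

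The second question was whether the recipient's stroma differed with the genotype of the graft. Under vehicle 3 of 9 tested members passed, *Col1a1* and *Cdh5* as lower and *Lepr* as higher in U2AF1(S34F) mice. This count has to be read against 39.5% of 14817 genes that passed, 19.7% as higher and 19.8% as lower. Under sudemycin D6, 1 of 9 passed, *Col1a1*, beside 36.8% of 14677 genes (17.2% higher, 19.6% lower). With junction reads 4 members passed under vehicle (33.1% of all genes) and 1 under the drug (31.6%).

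*Col1a1*, which codes for the α1 chain of type I collagen, had the largest difference. Vehicle-treated U2AF1(WT) mice had 11.8, 9.72, 10.7, 13.9 and 7.24 CPM, and vehicle-treated U2AF1(S34F) mice 5.09, 5.21, 3.32, 4.86 and 5.86 CPM. Under sudemycin D6 the values were 17, 12.2, 9.83, 11.6 and 15.2 CPM in U2AF1(WT) and 4.75, 5.01, 6.24, 5.73 and 5.54 CPM in U2AF1(S34F) mice. The genotypes did not overlap under either treatment, and *Col1a1* was the 1 member of which this was true. Groups did not overlap for 21.8% of 13274 genes with a mean of at least 0.5 CPM under vehicle (10.9% lower) and for 21.1% under the drug (9.87% lower). The log2 fold change was -1.14 ± 0.18 (adjusted p = 0.000657) under vehicle and -1.27 ± 0.15 (adjusted p = 0.000232) under sudemycin D6. It passed in each of the 10 fits of either comparison that left out 1 mouse, with values from -1.25 to -1.02 and from -1.35 to -1.16. Both comparisons come from separate mice.

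*Col1a2*, whose α2 chain joins 2 α1 chains in the type I collagen fibre, did not pass. It ranged from 10.7 to 17.4 CPM in U2AF1(WT) and from 10.3 to 16.8 CPM in U2AF1(S34F) mice under vehicle, at a log2 fold change of -0.14 ± 0.15 (adjusted p = 0.497). Under the drug it ranged from 11.2 to 32.5 and from 7.80 to 19.0 CPM, at -0.57 ± 0.30 (adjusted p = 0.178). The amount of *Col1a1* per *Col1a2*, both per kilobase, was 1.51 ± 0.541 in vehicle-treated U2AF1(WT) and 0.739 ± 0.159 in vehicle-treated U2AF1(S34F) mice (SD, n = 5). Under sudemycin D6 it was 1.49 ± 0.332 and 0.918 ± 0.296. On the log2 scale the ratio differed by -0.99 under vehicle (two-sided exact permutation test, p = 0.00794, the smallest that 5 against 5 mice can give) and by -0.74 under the drug (exact permutation p = 0.0238). After adjustment over the 12 tests of within-mouse ratios, which were chosen after the values were seen, both were 0.0952 in this exact permutation family.

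The same difference was read along the whole of *Col1a1*. All 50 junctions with annotated ends had fewer RPM (junction reads scaled, like the CPM, to the TMM-normalized total of gene counts) in the mean of the 10 U2AF1(S34F) mice than in that of the 10 U2AF1(WT) mice, with ratios from 0.223 to 0.654 and a median of 0.412. In the 25 junctions nearer the 5′ end the median was 0.425 and in the 25 nearer the 3′ end 0.396. *Col1a2* was lower at 50 of its 52 junctions, with a median ratio of 0.701, and *Col3a1*, for type III collagen, at 22 of 50, with a median of 1.04. These ratios pool both treatments. By gene counts the *Col1a2* ratio of means was 0.915 under vehicle and 0.677 under the drug. Without the U2AF1(WT) mouse 6 its log2 fold change under the drug was -0.23 in place of -0.57. Junctions of a gene share reads and are not replicates. When the junction reads of each gene were summed and tested in place of the gene counts, *Col1a1* differed by -1.30 ± 0.23 (adjusted p = 0.00169) under vehicle and by -1.41 ± 0.18 (adjusted p = 0.000354) under the drug.

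**Figure D3:**
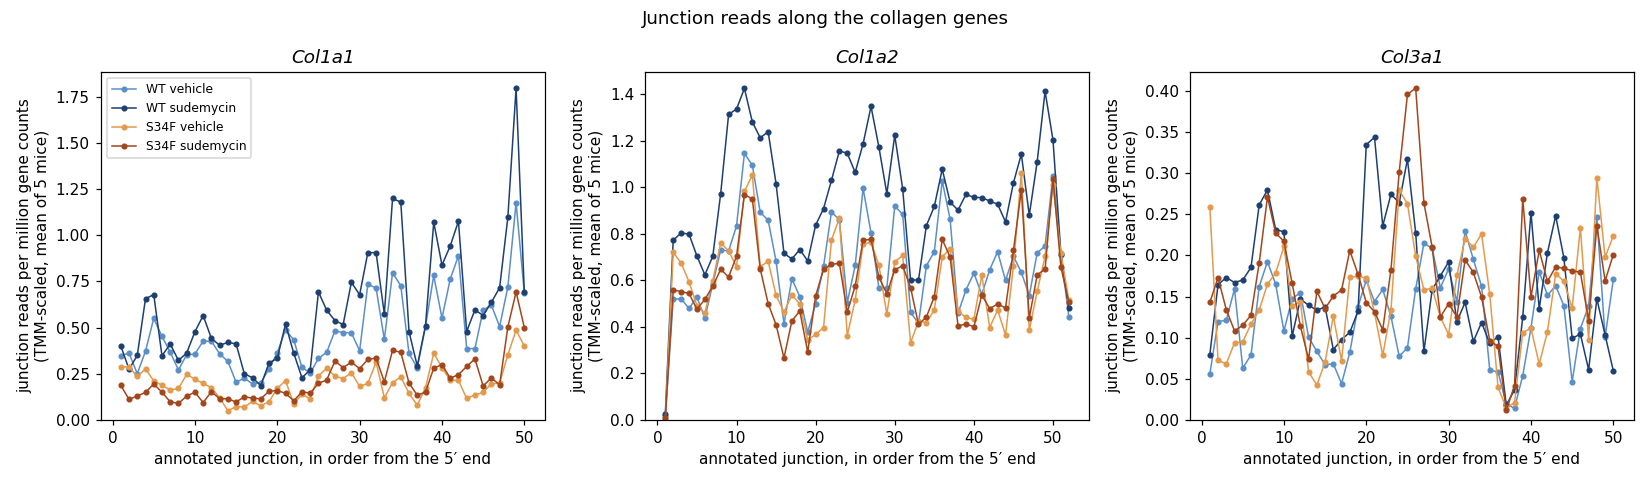
Scaled junction reads (RPM, mean of 5 mice per group) at each annotated junction of 3 collagen genes, in order from the 5′ end. Along *Col1a1* the 2 U2AF1(S34F) lines lie mostly below the 2 U2AF1(WT) lines and meet them near the 5′ end, and all 50 junctions were lower in the mean over both treatments, and the 4 lines cross along *Col3a1*.

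*Lepr*, for the leptin receptor, rose in U2AF1(S34F) mice under vehicle. Values were 6.43, 5.65, 8.61, 5.58 and 9.27 CPM in U2AF1(WT) and 9.32, 14.8, 7.77, 12.6 and 11 CPM in U2AF1(S34F) mice, and 4 of the 5 lay above every U2AF1(WT) mouse. The log2 fold change was 0.63 ± 0.19 (adjusted p = 0.0211) and it passed whichever mouse was left out. Under sudemycin D6 values were 11.9, 4.44, 6.17, 5.40 and 5.55 CPM in U2AF1(WT) and 10.2, 16.9, 8.08, 7.37 and 7.28 CPM in U2AF1(S34F) mice. The difference was of similar size, 0.56 ± 0.30, but did not pass (adjusted p = 0.180). Without the U2AF1(WT) mouse 6 it was 0.88 (adjusted p = 0.0207).

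*Cdh5* fell in U2AF1(S34F) mice under vehicle by 0.47 ± 0.19 on the log2 scale (adjusted p = 0.0801), and this call was not stable. Values were 5.88, 4.27, 5.39, 4.46 and 3.50 CPM in U2AF1(WT) and 2.66, 5.08, 3.34, 2.92 and 3.13 CPM in U2AF1(S34F) mice, of which 4 lay below every U2AF1(WT) mouse. It was lost in 7 of the 10 fits that left out 1 mouse, with adjusted p up to 0.196, and in the fits of junction reads (adjusted p = 0.229) and of all mice together (adjusted p = 0.224). Under sudemycin D6 the log2 fold change was -0.31 ± 0.32 (adjusted p = 0.499). 

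The remaining members overlapped between the genotypes. Under vehicle the log2 fold change was 0.17 ± 0.20 for *Cxcl12*, 0.17 ± 0.40 for *Adipoq* and 0.30 ± 0.27 for *Col3a1*. It was -0.27 ± 0.12 for *Igfbp5* (adjusted p = 0.108) and -0.29 ± 0.16 for *Sparc* (adjusted p = 0.182), and with junction reads these 2 passed, at -0.57 (adjusted p = 0.0472) and -0.49 (adjusted p = 0.0487). Under sudemycin D6 it was 0.25 ± 0.35 for *Cxcl12*, 0.04 ± 0.38 for *Adipoq*, 0.23 ± 0.25 for *Col3a1*, 0.14 ± 0.28 for *Igfbp5* and -0.31 ± 0.30 for *Sparc*. The median over the 9 members was -0.14 under vehicle and 0.04 under the drug, against 0.00 and -0.03 over all genes tested.

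Several of the members varied together from mouse to mouse, in large part through a few mice. After subtraction of the group means of log2(CPM + 0.5), 21 of the 36 pairs of members had a Pearson r above 0.5 over the 20 mice, with a median of 0.54. The count was 12 by Spearman's rho and 10 by r without the 2 mice farthest from the median of the first gene. The share of pairs above 0.5 over all genes was not computed, so these counts have no background beside them. The highest was that of *Col1a2* and *Sparc* (r = 0.94, Spearman rho = 0.85, and r = 0.86 without the 2 mice farthest from the median), followed by *Cxcl12* and *Adipoq* (r = 0.84, rho = 0.82, and 0.80 without 2 mice). *Cxcl12* and *Lepr*, both of reticular cells, had r = 0.79 (rho = 0.71, and 0.66 without 2 mice). Some pairs rested on a few mice. For *Igfbp5*, r without 2 mice went from 0.74 to 0.40 with *Lepr*, from 0.68 to 0.26 with *Sparc* and from 0.64 to 0.15 with *Col1a2*. Its r with *Col3a1* did not fall (0.54, and 0.55 without 2 mice). Several pairs without *Igfbp5* also fell, among them *Lepr* and *Sparc* (0.67 to 0.28), *Lepr* and *Col1a2* (0.73 to 0.40) and *Col1a2* and *Col3a1* (0.55 to 0.30). *Col1a1* stood apart from its partner chain, with r = 0.37 to *Col1a2*, and *Col3a1* had values from -0.11 with *Adipoq* to 0.55 with *Col1a2*. These are descriptions over mice of 1 preparation of marrow each, and the points share their libraries.

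A few mice carried much of this joint movement. The U2AF1(WT) mouse 6 under sudemycin was above its group's mean for all 9 members, by 0.80 on average on the log2 scale. Mouse 6 of the sudemycin-treated U2AF1(S34F) group was above for 8 of 9, by 0.57, and the vehicle-treated U2AF1(S34F) mouse 3 for 8 of 9, by 0.43. The lowest was the U2AF1(WT) mouse 8 under sudemycin, with 1 of 9 above and a mean deviation of -0.44. The mice numbered 6 are those without which *Igfbp5*, *Cxcl12* and *Lepr* passed in the comparisons named above.

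**Figure D4:**
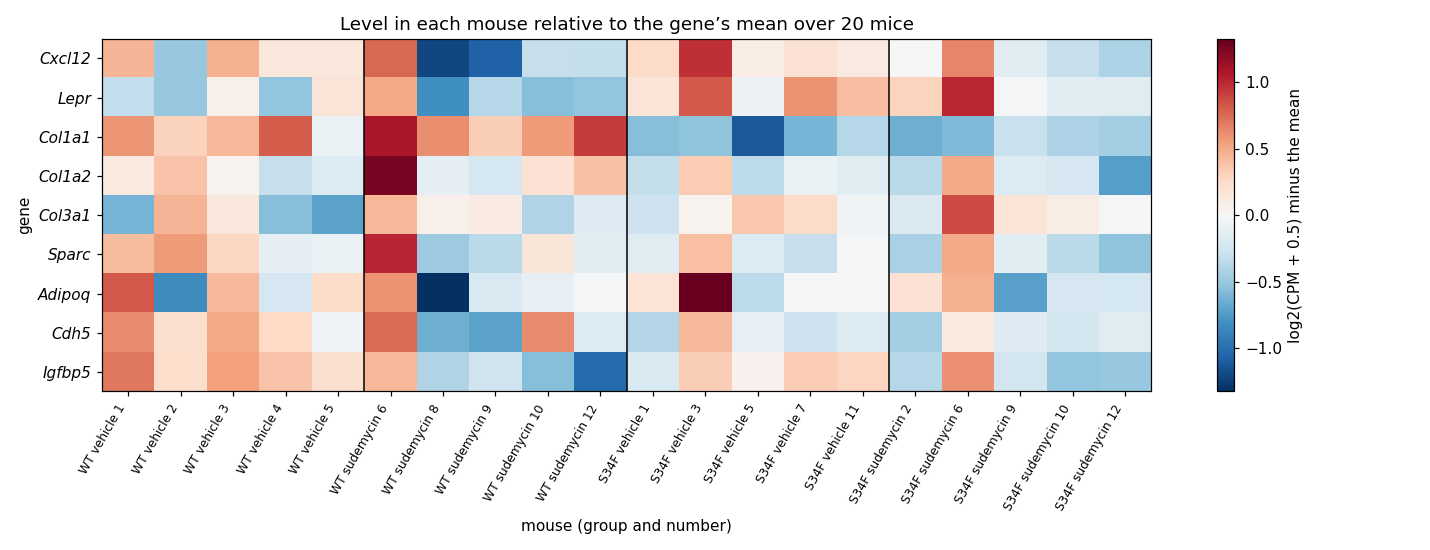
Level of the 9 measured genes in each of the 20 mice, as log2(CPM + 0.5) minus the gene's mean over all mice (red above, blue below), with black lines between the groups. The columns of U2AF1(WT) sudemycin 6, S34F vehicle 3 and S34F sudemycin 6 are red in most rows, and the row of *Col1a1* changes from red to blue at the border of the genotypes.

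Outside the members, 12227 genes with a mean of at least 1 CPM were compared with *Cxcl12*, *Col1a1* and *Cdh5* on the same scale. The 5 most like *Cxcl12* were *Gas6* (r = 0.97), *Ppap2b* (0.95), *Esm1* (0.94), *Tnc* (0.94) and *Lamb1* (0.93), and without the 2 farthest mice r was between 0.88 and 0.96. *Gas6* codes for a ligand of the TAM receptors, and *Tnc* and *Lamb1* for the matrix proteins tenascin C and laminin β1. Those most like *Cdh5* were *Gja1* (0.90), *Ephb4* (0.90), *Ppap2a* (0.90), *Tpm1* (0.90) and *Src* (0.90). *Gja1* codes for connexin 43 and *Ephb4* for a receptor of venous endothelium. For *Col1a1* the highest were only *AI646023* (0.78), *Gm7701* (0.77), *Macrod1* (0.74), *Armcx4* (0.74) and *Dhrs13* (0.74), and no collagen or bone gene was among them.

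The setting was read from 7 lists of genes chosen as stromal, 78 in all and without the members. Host and donor reads cannot be told apart in these genes either. Group means of the collagen processing genes *P4hb* and *Plod3* were 455 to 639 and 86.6 to 109 CPM, beside 68.4 to 105 CPM for *Cxcl12*. Over both genotypes 8 of the 69 tested genes of the lists passed for the drug (11.6%, beside 15.2% of all genes), 5 as higher and 3 as lower. The melanoma cell adhesion gene *Mcam*, of pericytes and endothelium but also of other cells, rose by a log2 fold change of 1.28 ± 0.11 (adjusted p = 2.07e-07). The pericyte gene *Rgs5* changed by -0.94 (adjusted p = 0.00643), the niche ligand *Angpt1* by -0.74 (adjusted p = 0.0196) and the matrix protease inhibitor *Timp3* by -0.66 (adjusted p = 0.0472). Of the adipocyte list, *Plin4* and *Lpl* rose by 0.50 and 0.47, with a median of 0.28 over its 6 tested genes. The adipocyte member *Adipoq* went the other way, at -0.40, and did not pass. *Plin1* had 0 to 11 counts per mouse, *Cidec* 0 to 4 and *Lep* 0. The endothelial receptor gene *Flt1* rose by 0.28, as the 1 of 13 tested endothelial genes that passed. The median of that list was -0.25. In the osteoblast and osteocyte list, 1 of 8 tested genes passed, as higher. In the other genes of these lists the drug's effect did not pass, which includes all 12 tested for collagen processing.

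Between the genotypes under vehicle, 14 of 68 tested genes of these lists passed (20.6%, beside 39.5%), 7 in each direction, and under sudemycin D6 9 of 67 (13.4%, beside 36.8%). Of the osteoblast and osteocyte list, 2 of 8 tested genes were called under vehicle and 2 of 7 under the drug, all as lower, beside 19.8% and 19.6% of all genes called as lower. *Runx2* changed by -0.89 (adjusted p = 0.000569) under vehicle and -0.48 (adjusted p = 0.0234) under the drug, and *Alpl*, for the alkaline phosphatase of osteoblasts, by -1.20 (adjusted p = 0.0977) under the drug. *Runx2* is also expressed in lymphoid cells. The summed level of the 12 genes of that list was 39.2 to 57.4 CPM in U2AF1(WT) and 28.5 to 37.4 CPM in U2AF1(S34F) mice under vehicle, but most of it was *Runx2*. Without *Runx2* the other 11 genes summed to 9.48 to 15.6 and 10.01 to 17.7 CPM under vehicle, which overlap, and to 4.15 to 29.8 and 6.79 to 11.6 CPM under the drug. The bone sialoprotein gene *Ibsp*, the next most abundant and chosen after its values were seen, had 6.55 ± 1.76 and 6.91 ± 2.34 CPM (SD, n = 5) under vehicle. *Sost*, of osteocytes, was at the floor in all mice. The other lists held genes in both directions under vehicle, such as *Mgp* (1.24), *Col5a1* (0.55) and *Col6a2* (-0.54) of the matrix, *Pdgfrb* (0.40) and *Angpt1* (0.58) of the niche, *Plvap* (-0.65) of sinusoidal endothelium, and *Crtap* (0.36) and *Plod3* (-0.35) of collagen processing.

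Genes of other marrow cells were compared between the genotypes as well. The 6 neutrophil genes summed to 59579 to 68163 CPM in U2AF1(WT) and 81939 to 134890 CPM in U2AF1(S34F) mice under vehicle. Of these 6, 4 were called as higher, beside 19.7% of all genes. Most of the higher sum came from *S100a8* (means of 10887.7 and 26162.8 CPM) and *S100a9* (22270.1 and 38692.5 CPM). The means of *Ngp* were 11362.9 and 11947.4 CPM, and those of *Ltf* 12606.1 and 14766.7 CPM. Those of *Camp* were 4661.89 and 6242 CPM, and those of *Mmp8* 1660.37 and 2157.18 CPM. The 6 B cell genes ranged from 32.3 to 114 and from 13.8 to 117 CPM, with 0 called under vehicle. The 6 macrophage genes ranged from 156 to 228 and from 205 to 265 CPM, the 6 megakaryocyte genes from 39.2 to 64.8 and from 39.3 to 60.6 CPM, and the 6 erythroid genes from 203 to 586 and from 168 to 740 CPM. Of these, 2 macrophage genes were called as higher and 1 as lower, 1 megakaryocyte gene each way and 0 erythroid genes. Of all genes 39.5% were called, 19.7% as higher and 19.8% as lower. The macrophage sum was mostly *Vcam1* (means of 87.1 and 144 CPM) and *Emr1* (76.7 and 54.1 CPM), which went opposite ways between the genotypes. The other macrophage genes were far less abundant and had higher means in U2AF1(S34F) mice under vehicle. Between the genotypes under sudemycin D6, 2 of 6 neutrophil genes and 1 of 6 macrophage genes were called as higher, beside 17.2% of all genes. As lower, 3 of 6 B cell, 3 of 6 erythroid and 2 of 6 megakaryocyte genes were called, beside 19.6% of all genes. The tissue next to marrow was scarce. Over all mice, 7 skeletal muscle genes summed to 2.50 to 5.85 CPM and 6 cartilage genes to 0.670 to 3.31 CPM. *Myh1*, *Acan* and *Col9a1* were at the floor. Separately, 5 osteoclast genes summed to 6.76 to 25.7 CPM over all mice. With the drug, over both genotypes, 3 of 6 megakaryocyte genes and 2 of 6 B cell genes were lower, beside 7.31% of all genes. Of the skeletal muscle genes, 1 of 4 tested, *Tnnt3*, was higher, beside 7.92% of all genes. The part of these cells in the differences of *Col1a1*, *Lepr* and *Igfbp5* was not tested.

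The junction table also shows which forms of the members were made. For *Cxcl12*, 6041 reads in all led from exon 3 into the beta exon, 72 to 703 per mouse, and 241 into the gamma exon, 0 to 29 per mouse. Reads into the beta exon made up 40.4% ± 5.25 and 34.8% ± 7.21 (SD, n = 5) of the reads on this and the preceding junction in U2AF1(WT) mice under vehicle and sudemycin D6. In U2AF1(S34F) mice the share was 40.4% ± 2.23 and 32.6% ± 3.71. It differed under the drug by -5.68 percentage points in U2AF1(WT) (exact permutation p = 0.183) and by -7.84 in U2AF1(S34F) mice (exact permutation p = 0.0159, 0.0952 over the 12 tests). This share is not that of an isoform, since the alpha form ends in exon 3 without a further junction.

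*Lepr* was read almost wholly in its short form. Of 705 reads that left the last shared exon for either of these 2 last exons, 699 led to the short form, 16 to 68 in each mouse, and 6, all in 1 mouse, to the long form (0.851%, 95% Wilson interval 0.391 to 1.84, for counting error only). Unannotated junctions within the members were rare, from none in *Bglap* and *Igfbp5* to 69 of the reads on *Lepr*, or 0.692%. Those of *Lepr* had 16 reads in the 10 vehicle-treated and 53 in the 10 sudemycin-treated mice, with at most 14 in 1 mouse. *Sparc* had 0 and 14 such reads, whereas *Cxcl12* (18 and 0) and *Adipoq* (1 and 0) went the other way. A difference with the drug in these reads was not tested.

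Exon skipping was read from a mark in the junction table for junctions that pass over an annotated exon, which some normal introns also carry where a rare exon lies inside them. The members with enough such reads to be tested were *Lepr*, *Col1a1* and *Col3a1*, and 0 of these 3 passed with limma in any of the 4 comparisons, with no other tool run. The shares of genes that passed were 0.0177% of 5652 for the drug in U2AF1(WT), 0.0882% of 5667 in U2AF1(S34F), 1.96% of 5672 for the genotype under vehicle and 8.82% of 5655 under the drug. *Lepr* alone had an unadjusted p under 0.05, in both comparisons of the genotypes. Marked junctions took 11.7% ± 3.34 of its reads in vehicle-treated U2AF1(WT) and 7.50% ± 1.24 in U2AF1(S34F) mice, a difference of -0.68 ± 0.22 in the log2 ratio (adjusted p = 0.164). Under sudemycin D6 the shares were 10.4% ± 3.01 and 6.37% ± 2.04, a difference of -0.76 ± 0.28 (adjusted p = 0.146), which passed without the U2AF1(WT) mouse 6 (adjusted p = 0.0616) and without the U2AF1(S34F) mouse 10 (adjusted p = 0.0925).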

How the data were processed

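RNA of 20 marrows was depleted of ribosomal RNA and sequenced as stranded pairs of 126 bases. The authors aligned reads with TopHat 2.0.8 to mm9 and deposited whole-number counts on 37620 genes and on 554616 junctions, without normalization, with a further deposited column that scores each junction as passing over an annotated exon. The counting program is not given in the sources used here. Symbols, exons and sequences came from the GENCODE annotation and genome of NCBIM37 (37205 genes matched).

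Genes were filtered (filterByExpr), scaled (TMM) and tested in edgeR 4.0.16 (R 4.3.3) by the robust quasi-likelihood test with a prior count of 2 and Benjamini-Hochberg adjustment over all genes at FDR<10%. Pairs of groups were fitted on their own 10 mice. The drug over both genotypes and the interaction used all 20. Reads on skipping junctions against the others (both ends annotated, pseudocount of 0.5, means of at least 5 and 50 reads) were tested with limma 3.58.1. Ratios within mice were tested with exact permutation tests (scipy 1.17.1). The scripts were tested on simulated data. DESeq2 1.42.0 and the other alternatives are given after the report. Mice of a group are separate animals, but donors were pooled, so p-values measure the spread between recipients. No 2 mice of a group had counts within sampling noise (chi-square per degree of freedom of at least 21.8).

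The members, the 15 gene lists and the tests were chosen with earlier results of these data known. Named are all members, genes of the lists that passed (at most 4 a list, by smallest adjusted p), and the 5 genes most correlated with *Cxcl12*, *Col1a1* and *Cdh5*. Some genes that this rule names are not reported here. CPM use the TMM-scaled library, and levels per length divide by the union of exons. Intervals and floors cover counting error only.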

Additional observations from a re-analysis of the deposited data

Results flagged for a closer look

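Of the 36 sets of 5 mice (9 genes in 4 groups) 6 held a mouse that stood far from the other 4 by Dixon's criterion. Normally distributed values would meet it in about 1 in 20 groups. The criterion was applied to CPM on the linear scale, whose rate may differ, and the rate over all genes was not computed. In vehicle-treated U2AF1(S34F) mice it was mouse 3 each time, with *Cxcl12* at 160 CPM (the others 87.0 to 96.8), *Adipoq* at 6.64 CPM (1.77 to 2.76) and *Cdh5* at 5.08 CPM (2.66 to 3.34). In sudemycin-treated U2AF1(S34F) mice it was mouse 6, with *Igfbp5* at 50.1 CPM (22.7 to 27.6) and *Col3a1* at 5.61 CPM (2.44 to 3.26). In sudemycin-treated U2AF1(WT) mice it was again mouse 6 of that group, with *Lepr* at 11.9 CPM (4.44 to 6.17). All 6 were the highest of their group, and the sets are not independent, since genes of 1 library share its cells.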

How the results depend on the processing

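Of 319 values of single members under alternatives other than leaving out a mouse, 306 kept their side of the threshold, 6 lost and 7 gained a call, and 5, none of them called, changed sign. With DESeq2 and with 1 model of all 20 mice, 1 member, *Igfbp5*, was called for the drug in U2AF1(WT), at adjusted p of 0.0322 and 0.0984, where edgeR on the 10 mice called 0. *Igfbp5* over both genotypes was lost without a filter on low counts (adjusted p = 0.107). Numbers in the titles are partly shared by the genotypes. Mice of the same number deviated together in some pairs but not in all (r from -0.19 to 0.39 over 7 pairs), so they were not taken as pairs. With the replicate block, 3 members were called between the genotypes under sudemycin D6 in place of 1 and 2 in place of 3 under vehicle, where *Lepr* had 0.34 (adjusted p = 0.231) and *Cdh5* -0.44 (adjusted p = 0.214); its calls over all genes were 4628 and 3718 in place of 5851 and 5402. The exon skipping calls over all genes fell from 111 and 499 to 2 and 4 with the replicate block, and 0 members were called with or without it. Leaving out 1 mouse gave 0 to 1 members called for the drug in U2AF1(WT), 0 to 1 in U2AF1(S34F), 0 to 2 over both genotypes and 0 for the interaction, 2 to 5 between the genotypes under vehicle and 1 to 3 under the drug, and 0 to 1 for skipping between the genotypes under the drug and 0 in the other 3. Counts over all genes moved by more than 1.5 times for the drug in U2AF1(WT), from 453 to 811 (DESeq2), 1072 (1 model) and 140 (junction reads), in U2AF1(S34F), from 1588 to 788 (1 model) and 902 (junction reads), over both genotypes, from 2294 to 1246 (junction reads), and for the interaction, from 2 to 116 (DESeq2), 10 (no filter) and 3 (replicate block). Leaving out 1 mouse also moved these counts, to 191 (without U2AF1(WT) vehicle mouse 1) to 730 (without U2AF1(WT) vehicle mouse 2) for the drug in U2AF1(WT), 913 (without U2AF1(S34F) sudemycin mouse 2) to 1736 in U2AF1(S34F), and 2 to 87 (without U2AF1(S34F) vehicle mouse 5) for the interaction. The counts of exon skipping between the genotypes moved from 111 to between 14 (without U2AF1(S34F) vehicle mouse 11) and 144 under vehicle, and from 499 to between 178 (without U2AF1(S34F) sudemycin mouse 9) and 644 under the drug, and those for the drug from 1 and 5 to between 0 and 3 and between 0 and 11. The shares of all genes that stand beside the members' counts move with them. The junction reads of each gene were added as an alternative after the data were seen. Where no cause follows from fewer genes or mice, the cause was not tested. Depth limits *Bglap*, *Adipoq* and the reads of the rare isoforms.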
